A study of Mus musculus with 4 samples.

Results

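Intergenic long noncoding RNA (lncRNA) genes that carry only a systematic name, either Gm with a number or a name ending in Rik, were followed through 4 times of osteoclast formation. The members came from the study's lists of lncRNA probes that differed over 2-fold from 0 h at 24, 72 or 96 h. A probe was kept once if its only relation to a coding gene was given as intergenic and if any array measured it well above background, and D430036J16Rik was left out. Well above background is a flag of the scanning software for a spot clearly brighter than background. It is stricter than the software's flag for a positive and significant signal. Of 3937 listed probes, 587 on 564 genes were kept, and none that met the naming rule was lost to the background filter. The authors' table holds 60804 probes in all. The members were thus chosen by their measured change against 0 h on these same arrays, so their changes are a description here and no test was made. The lists as used here held 1411, 1608 and 1675 probes higher at 24, 72 and 96 h, but 258, 45 and 0 lower. The paper reports more lncRNAs in each of these classes. The list of probes higher at 96 h was held in part, as were those of lower probes. Without a floor 272 members were at least 2-fold higher at 96 h, but 248 were in that list. The members thus cannot show how often such genes fell, or how often they rose at 96 h.

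RAW264.7, a mouse macrophage-like line that can be turned into osteoclasts in culture, was given RANKL at 100 ng/ml and M-CSF at 50 ng/ml. For its pit assay the paper describes the 0 h cells as not induced with either. A change against 0 h can thus hold both treatment and time. The labels call the cells monocytes at 0 h, pre-osteoclasts at 24 h, mature osteoclasts at 72 h and activated osteoclasts at 96 h, and all groups are the same line with no genetic change stated. RNA of each time was put on 1 array (Arraystar Mouse LncRNA V3.0), so no replicate error exists and a difference between times has no replicate check. The arrays of 0 and 72 h lay on slide 1 and those of 24 and 96 h on slide 2.

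Levels are the authors' quantile normalized log2 values, in which a step of 1 is a factor of 2. A probe that was not well above background at a time has no measured level there, and its change was computed against the lowest value among probes well above background on that array (4.81, 5.17, 5.15 and 4.41 in the order of the times), or against its own value where that was higher. Such a change is written as at least so large. The only values on precision came from 30 other probes spotted repeatedly, of which 15 or 16 were well above background on each array and had a median spot SD of 0.0467 to 0.0698 log2, while those not above it had 0 to 0.2. Each member had a single spot. None of the members' spots was saturated.

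RANKL is the cytokine that drives macrophage precursors to fuse into bone-resorbing osteoclasts, and M-CSF keeps the precursors alive. Intergenic lncRNAs are transcribed between coding genes, and some of them are known as hosts of microRNAs or small nucleolar RNAs, as regulators of a neighbouring gene, or as parts of nuclear structure. Pseudogenes, which also carry Gm names, are copies of other genes that have usually lost their coding function.

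Markers could be checked only through listed noncoding transcripts of marker genes, as the files used here pair no coding marker with a probe. Of the osteoclast genes, the noncoding Mmp9 transcript had levels of 8.90, 7.42, 6.35 and 8.06 at 0, 24, 72 and 96 h, and that of Ppargc1b had 7.26, 6.79, 7.99 and 9.81. Of the macrophage genes, Irf8 had 9.18, 9.53, 11.05 and 9.27 and Bcl6 had 7.76, 8.50, 9.40 and 6.55. The osteoclast transcripts thus differed from each other in which time was highest, while both macrophage transcripts were highest at 72 h. These transcripts do not stand for the coding messages of the genes.

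The 60-base probes show what the arrays could tell apart. In these pairs of related genes the capitals mark the longest run of bases that both probes share, and the first pair, Gm15092 and Gm15100 on chromosome X, shared 47 of 60 bases.
Gm15092: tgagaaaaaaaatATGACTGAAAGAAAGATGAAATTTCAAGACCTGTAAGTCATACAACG
Gm15100: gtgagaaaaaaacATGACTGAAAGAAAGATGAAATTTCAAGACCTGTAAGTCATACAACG
Gm15110: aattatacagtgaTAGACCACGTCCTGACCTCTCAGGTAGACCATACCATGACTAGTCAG
Gm15112: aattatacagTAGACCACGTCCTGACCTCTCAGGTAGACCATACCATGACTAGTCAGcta
Gm12427: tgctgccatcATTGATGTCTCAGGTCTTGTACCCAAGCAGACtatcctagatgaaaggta
Gm12431: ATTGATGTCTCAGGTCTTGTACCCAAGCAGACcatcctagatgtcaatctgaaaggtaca
Gm6462: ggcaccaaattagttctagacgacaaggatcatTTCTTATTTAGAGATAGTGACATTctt
Hspe1-ps2: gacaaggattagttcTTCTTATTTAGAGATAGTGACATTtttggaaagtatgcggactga

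The probes of 5 members whose levels are described in detail further below are shown in full, with no capitals, since what each one reads rests on these letters alone.
Gm12665: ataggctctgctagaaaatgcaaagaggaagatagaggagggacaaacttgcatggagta
Gm17757: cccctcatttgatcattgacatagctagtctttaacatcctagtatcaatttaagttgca
Gm8979: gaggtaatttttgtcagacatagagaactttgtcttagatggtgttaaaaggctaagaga
Gm14074: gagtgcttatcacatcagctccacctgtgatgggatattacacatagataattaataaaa
Gm11954: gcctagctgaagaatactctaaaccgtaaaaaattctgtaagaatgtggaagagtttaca

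Members whose interval holds a microRNA gene in RefSeq (GRCm38.p6) are potential hosts. For 4 of the intervals described below, 1 arm of each of 5 mature microRNAs is given with the seed, bases 2 to 8, in capitals, and no seed was shared among these.
mmu-miR-223-3p: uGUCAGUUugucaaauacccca
mmu-miR-125b-5p: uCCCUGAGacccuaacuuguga
mmu-miR-216a-5p: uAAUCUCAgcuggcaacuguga
mmu-miR-217-5p: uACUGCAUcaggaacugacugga
mmu-miR-344-3p: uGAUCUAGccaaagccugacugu

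The promoters of a microRNA host and of a myeloid lncRNA are shown because both genes had 2 member probes. They run from 250 bases before to 50 bases after the start in RefSeq's GRCm38.p6, at chrX:96239676-96239975 on the plus strand for F630028O10Rik and chr2:128429302-128429601 on the minus strand for Gm14005, now called Morrbid. Capitals mark the letters of the PU.1 core, interferon response and AP-1 motifs described further below.
F630028O10Rik: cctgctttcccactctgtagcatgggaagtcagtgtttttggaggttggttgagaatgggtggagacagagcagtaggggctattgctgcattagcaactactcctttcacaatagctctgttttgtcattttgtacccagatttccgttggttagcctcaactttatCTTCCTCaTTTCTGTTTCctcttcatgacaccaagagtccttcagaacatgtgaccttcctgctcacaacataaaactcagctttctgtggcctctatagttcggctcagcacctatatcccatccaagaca
Morrbid: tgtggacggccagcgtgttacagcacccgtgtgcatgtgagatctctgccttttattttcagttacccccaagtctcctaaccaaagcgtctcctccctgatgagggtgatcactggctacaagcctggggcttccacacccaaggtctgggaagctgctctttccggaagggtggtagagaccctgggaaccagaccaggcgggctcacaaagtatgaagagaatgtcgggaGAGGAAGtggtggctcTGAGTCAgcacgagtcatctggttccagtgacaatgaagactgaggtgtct

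As annotated, the members were mostly short and of mixed kinds. Their RNA was 135 to 7293 bases long with a median of 689, and 175 of the 587 had a single exon. Ensembl transcripts made up 435, RefSeq 133 and UCSC 19. RefSeq entries were matched for 408 probes, 130 by accession, 251 by symbol and 27 by an older symbol, and 403 of these overlapped the listed interval on GRCm38. RefSeq called 257 of them lncRNA, 122 pseudogene, 15 transcribed pseudogene, 13 protein coding and 1 miscellaneous RNA, so that part of the members are not lncRNA genes in that annotation. Intergenic is the term of the lists, and in RefSeq some members lie at 0 kb from a coding gene. Among them are Gm17757 (Gm4070), Gm2762 (Gm38564), Gm11270 (Gpx6), Gm13230 (Gm42346), Gm12940 (Sfpq) and Gm26744 (Map3k13). Chromosomes X, 2 and 4 held the most members, with 88, 87 and 73. The lists marked 29 of the probes as cross-hybridising.

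Detection rose over the times. Well above background were 256 of the 587 members on the 0 h array (43.6%), 340 on that of 24 h (57.9%), 344 on that of 72 h (58.6%) and 465 on that of 96 h (79.2%). Over all probes of the table the shares were 62.3%, 58.8%, 59.8% and 66.8%, so the order of times differed between the members and the whole table. A single array detected 226 members, 102 were detected on 2, 61 on 3 and 198 on 4. Of those on a single array, the 96 h array held 121, the 72 h array 59, the 24 h array 42 and the 0 h array 4. The whole table had 4333 probes detected on a single array. The 96 h array, which had the lowest floor (4.41), held 2525 of them, so its lead was not particular to the members. Of the rest, 677 belonged to the 0 h array, 660 to the 72 h array and 471 to the 24 h array. All 4 arrays detected 33.7% of the members, 41.7% of the other listed probes and 53.7% of all probes. The lists hold far more higher than lower probes, so a low detection at 0 h is part of how the members were chosen. In bulk RNA, fewer cells of a type and less RNA per cell cannot be told apart.

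Among the 198 members detected on every array, the highest level was that of 72 h in 83, of 96 h in 49, of 0 h in 37 and of 24 h in 29. The lowest was that of 96 h in 78, of 0 h in 50, of 24 h in 38 and of 72 h in 32. Over all 32668 probes detected on every array, 29.2% were highest at 72 h and 29.1% lowest at 96 h, where the members had 41.9% and 39.4%. Many members came from the list of probes higher at 72 h and no list held probes lower at 96 h. Under a 75th percentile scaling, chosen after seeing the data, 88 of 197 members were highest at 72 h and 75 lowest at 96 h.

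Against 0 h, the members went mostly up, as their choice fixed. At 24 h, 373 passed the background flag on either of the compared arrays, of which 116 (31.1%) were at least 2-fold higher and 61 (16.4%) lower, against 3.40% and 6.14% of the 39289 probes of the table that could be compared. At 72 h, 129 of 371 (34.8%) were higher and 9 (2.43%) lower, against 4.35% and 5.31% of all probes. At 96 h, 133 of 480 (27.7%) were higher and 70 (14.6%) lower, against 5.72% and 8.42%. These contrasts chose the members, so nothing is read from the gap to all probes. Of the higher members, 59, 38 and 54 rest on a bound because the 0 h level was not measured. With another background correction of the scanner signals (normexp), the split turned to 35 higher and 44 lower at 24 h and to 41 higher and 53 lower at 96 h.

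For many listed members a change of 2-fold could not be shown above background. Of 212 members in the list of probes higher at 24 h, 116 had a measured change or a bound of at least 2-fold, and 48 were not well above background on either array. Of 226 listed as higher at 72 h, 129 had one and 29 were below background on both, and at 96 h the counts were 128 and 5 of 248. Detected only at the later time were 107, 106 and 166 of the listed members, where a bound under 2-fold leaves the size of the change unknown. Of 73 listed as lower at 24 h, 56 had a measured change or bound of at least 2-fold and 7 were below background on both. The smallest listed changes lay at the limit, with Gm14101 at 1.005 log2 at 24 h, Gm9320 at 1.005 at 72 h, 1700116B05Rik at 1.002 at 96 h and Gm14577 at 1.017 in the downward direction at 24 h. Just outside the limit at 24 h, 4933436H12Rik had 0.999.

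The contrasts between later times were not used for the lists, although they share the same arrays. From 24 to 72 h, 120 of 459 members were higher and 81 lower by at least 2-fold, 26.1% and 17.6%, beside 8.32% and 8.20% of all probes. From 72 to 96 h, 91 of 540 were higher and 171 lower, 16.9% and 31.7%, beside 10.9% and 12.9%. From 24 to 96 h, which share a slide, 52 of 519 were higher and 81 lower, 10.0% and 15.6%, beside 5.33% and 6.51%. From 72 to 96 h the direction depends on how the members were chosen. A list of probes higher at 72 h gave 226 members, and no list held probes lower at 96 h. Of the 171 lower members, 106 were among the 156 listed only as higher at 72 h, so nothing is read from the gap to all probes. The counts also depended on the scaling. A scaling of the scanner signals to the 75th percentile gave 138 higher and 137 lower. A scaling to the median of probes detected on all arrays gave 132 and 143.

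**Figure D1:**
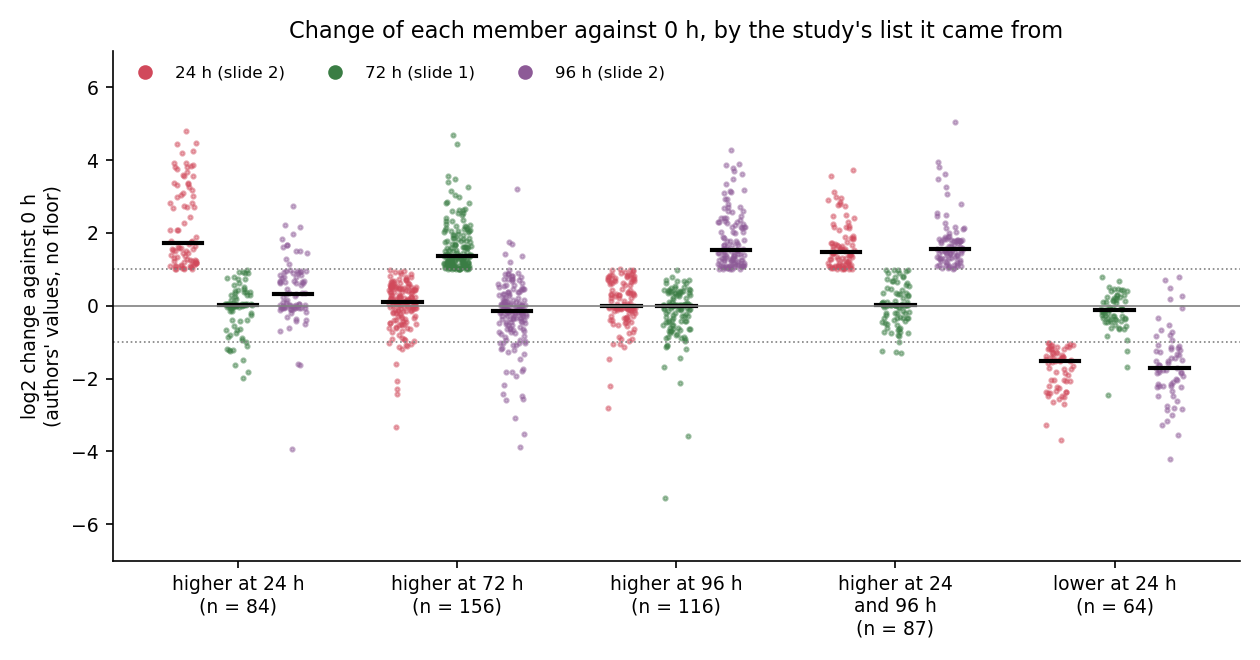
Log2 change of each member against 0 h at 24, 72 and 96 h (authors' values without a floor, dotted lines at 2-fold), grouped by the study's list or pair of lists the member came from, 1 point a member and black bars for medians. The lists of lower probes and of probes higher at 96 h were held in part. The time that chose a group lies beyond the dotted line by construction, and Gm12665 lies above the axis at 24 h. The group lower at 24 h had medians of -1.53 at 24 h, -0.12 at 72 h and -1.70 at 96 h.

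Sorted by the lists as held here, the members fell into a few groups. As the lists of lower probes and of probes higher at 96 h were held in part, a member listed only at 1 time can have passed 2-fold at another. Without a floor, members listed only as higher at 24 h and only at 72 h reached 2.74 and 3.20 log2 units at 96 h. The largest group was 156 members listed only as higher at 72 h, with a median change of 0.10 at 24 h, 1.37 at 72 h and -0.14 at 96 h. Another 116 were listed only at 96 h, with medians of -0.01, -0.01 and 1.53. A pattern of 87 members listed as higher at both 24 and 96 h had medians of 1.47, 0.01 and 1.56, while 84 listed only at 24 h had 1.72, 0.02 and 0.32. The other combinations were smaller, with 27 at 24 and 72 h, 26 at 72 and 96 h, and 14 at all 3 times.

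The 64 members listed only as lower at 24 h were a group with strong signals. Their 0 h levels ran from 4.43 to 15.77 with a median of 11.23, and the medians at 24, 72 and 96 h were 9.22, 10.77 and 8.90. The 24 and 96 h levels were low together and the 72 h level was near that of 0 h. At least 2-fold lower at 96 h were 48 of the 64, and 2 at 72 h, where all probes had 8.42% and 5.31%. The 96 h array was not used to choose them, as no list of probes lower at 96 h was held, but the 0 h array was. Of these members, 45 were at least 2-fold higher at 72 h than at 24 h, the array that chose them, and 44 lower at 96 h than at 72 h. Over all probes these shares were 8.32% and 12.9%. RefSeq calls 39 of the 64 a pseudogene, 38 have a single exon and 19 lie on chromosome X. Among all 587 members these counts were 137, 175 and 88.

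The slides moved with this pattern. Members that were high at 24 and 96 h, or low at both, separated the arrays of slide 2 from those of slide 1. In contrasts with no array in common, 24 h against 0 h and 96 h against 72 h, 33 members were higher in both, 45 lower in both, 12 higher then lower and 3 lower then higher. These counts are out of 587 members. The whole table of 60804 probes had 355, 1365, 102 and 212 probes in these classes. In 72 h against 0 h and 96 h against 24 h, each within a slide, 2 members were higher in both, 1 lower in both, 23 higher then lower and 4 lower then higher, where the whole table had 65, 79, 309 and 339. Changes against 0 h chose the members, so nothing is read from these counts beside those of the whole table. For 24 and 96 h, time and slide cannot be told apart from these 4 arrays.

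Pseudogenes made up much of the members listed as lower, a list held only in part. In a list of lower probes were 41 of 122 RefSeq pseudogenes (33.6%), 1 of 15 transcribed pseudogenes (6.67%) and 19 of 257 RefSeq lncRNAs (7.39%). Single-exon members were in such a list in 43 of 175 cases (24.6%), and members with several exons in 34 of 412 (8.25%). Gm11954, a pseudogene at chr11:4002457-4002805 on the plus strand, 3.1 kb from Gal3st1, had levels of 12.87, 9.19, 12.43 and 8.68 at 0, 24, 72 and 96 h. The levels at 24 and 96 h lay 3.69 and 4.20 log2 units below that at 0 h, while the 72 h level was 0.44 below. Gm11270, a pseudogene on chromosome 13, had the same shape with 12.53, 9.26, 12.47 and 8.97. Gm14834, a pseudogene on chromosome X, had 10.25, 7.56, 9.82 and 7.24. These 3 were the members with the largest measured falls at 24 h, and all had low levels on both arrays of slide 2.

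Among the probes of highest mean signal, a rank that compares spots rather than amounts of RNA, were pseudogenes of both directions. Gm8096, a transcribed pseudogene on chromosome 8, had 16.17, 16.24, 17.56 and 16.27, high at 72 h alone. Gm6462, a pseudogene on chromosome 1, had 15.77, 14.08, 15.38 and 14.07. Its probe shares 24 bases with that of Hspe1-ps2, a pseudogene of the mitochondrial co-chaperonin gene Hspe1 that is not a member, which had 13.39, 9.68, 13.08 and 10.01. Both probes were thus low at 24 and 96 h, by 1.70 log2 units at each time for Gm6462. Whether the probes read the same RNA was not tested. Gm4919, Gm6293 and Gm26744 also fell by at least 2-fold at 24 h from 0 h levels of 15.04, 15.16 and 14.95.

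Hosts of small RNAs differed in their time of highest level. F630028O10Rik, which spans Mir223, a microRNA abundant in myeloid cells, had 4.62, 5.92, 5.36 and 5.88 on a first probe, which was well above background at the 3 later times. Its changes against the 0 h floor were at least 1.12, 0.55 and 1.08 log2 units. A second probe had 3.28, 4.88, 4.47 and 4.70 and passed the background flag only at 96 h, so no change of 2-fold could be called there. The first probe's bases begin within the promoter printed above, so it reads the 5' end of the transcript. The mature microRNAs were not measured on these arrays.

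2610203C20Rik is now Mir100hg, the host of microRNAs that include miR-125b. Its probe at chr9:41614237-41617772 on the plus strand had 7.37, 6.04, 7.45 and 9.91, which is 2.55 log2 units or 5.85-fold higher at 96 h than at 0 h and 1.32 lower at 24 h. A second probe, on the transcript at chr9:41581339-41592487 that spans Mir125b-1, had 4.73, 4.49, 5.79 and 4.95 and was not well above background at 0 and 24 h. The first probe was highest at 96 h and the second at 72 h, and as the second has no level at 0 h, its rise at 96 h is known only as a bound.

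Gm12082, on chromosome 11, spans Mir216a and Mir217 and had 7.38, 8.45, 6.90 and 8.72, with the 24 and 96 h levels higher. A930011O12Rik, now Mir124a-1hg, was the reverse of most members, with 6.42 at 0 h and no level well above background later, a fall of at least 1.23, 1.27 and 2.01 log2 units. Gm26871, which spans Mir137, was detected only at 72 h on one probe and only at 96 h on the other. 2410006H16Rik, the host of Snord49a, Snord49b and Snord65, had 14.23, 14.82, 15.43 and 13.86, and was 2-fold higher only at 72 h. Gm11974, now Snhg15, another host of a small nucleolar RNA, had 9.36, 10.17, 10.52 and 10.10 and was also highest at 72 h.

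**Figure D2:**
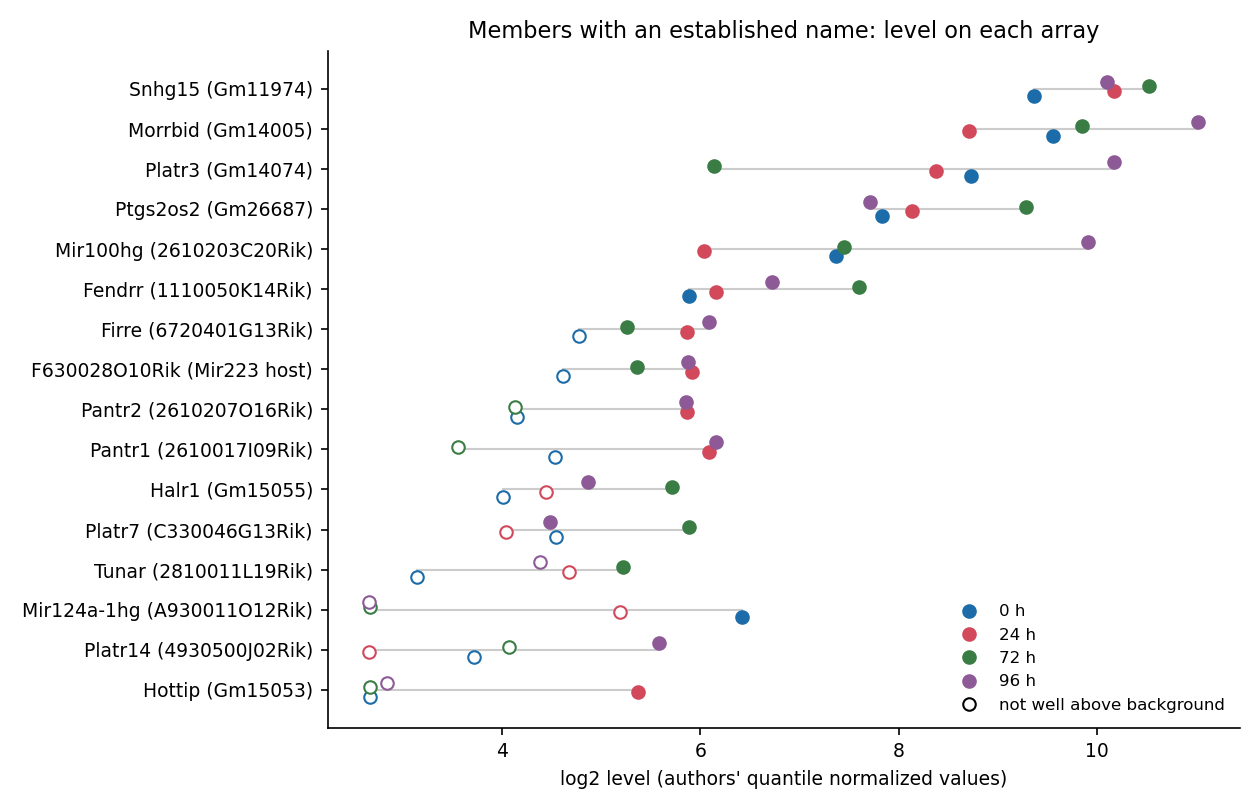
Level of 16 members that have since been given a name or a known microRNA, on the authors' quantile normalized log2 scale, 1 point for each array and open points where the probe was not well above background. Platr3 was lowest at 72 h and highest at 96 h, while the points of Firre, Pantr1, Pantr2 and the Mir223 host at 24 and 96 h lie close together.

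Several members have since been named as lncRNAs with a known role. Gm14005, now Morrbid, a regulator of the pro-apoptotic gene Bcl2l11 in myeloid cells, had 9.56, 8.71, 9.85 and 11.02 on the probe of the longer transcript and 6.97, 6.93, 7.38 and 8.22 on that of the shorter one. Both probes were highest at 96 h, with rises of 1.46 and 1.25 log2 units over 0 h. Its interval at chr2:128316300-128429351 ends 153.8 kb from Bcl2l11. Gm26687, now Ptgs2os2 and known as lincRNA-Cox2, an inflammatory lncRNA of macrophages, had 7.83, 8.13, 9.28 and 7.71. Only its 72 h level was 2-fold higher than at 0 h, by 1.44 log2 units, and Ptgs2 lies 50.8 kb away.

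Gm14074, now Platr3, one of the pluripotency-associated transcripts, lies 6.5 kb from Plcb4 at chr2:135648907-135652063 on the plus strand. It had 8.73, 8.38, 6.14 and 10.17, all well above background. The level at 72 h was 2.58 log2 units below 0 h and that at 96 h 1.44 above, a rise of 4.02 between these arrays. It was both the largest measured fall at 72 h and the largest measured rise from 72 to 96 h. Of the same family, Platr7 (C330046G13Rik) was detected at 72 and 96 h and Platr14 (4930500J02Rik) only at 96 h.

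6720401G13Rik, now Firre, an X-linked lncRNA of nuclear organisation, had 4.78, 5.87, 5.26 and 6.09 and was not well above background at 0 h. Its changes were at least 1.07, 0.45 and 1.29 log2 units. 1110050K14Rik, part of Fendrr, a lncRNA beside Foxf1, had 5.89, 6.16, 7.60 and 6.72, highest at 72 h by 1.70 log2 units over 0 h. Pantr1 (2610017I09Rik) and Pantr2 (2610207O16Rik), neighbours of the neural factor gene Pou3f3, were detected at 24 and 96 h, Pantr1 with 4.54, 6.09, 3.56 and 6.16 on the brighter of its probes and Pantr2 with 4.15, 5.87, 4.13 and 5.86. The other Pantr1 probe had 2.64, 2.59, 2.67 and 5.58 and was detected only at 96 h. At the edge of detection were lncRNAs of the HoxA cluster, Hottip (Gm15053) with a level of 5.37 at 24 h alone, and Halr1 (Gm15055) with 5.71 at 72 h and 4.87 at 96 h. Tunar (2810011L19Rik) was detected only at 72 h, at 5.22.

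At 24 h, Gm2762 on chromosome 13 had the largest measured rise. Its levels were 6.03, 8.77, 6.12 and 7.15, which is 2.74 log2 units or 6.69-fold higher at 24 h than at 0 h, and the lists mark its probe as cross-hybridising. Gm11763 rose by 2.48 log2 units, with 4.95, 7.43, 4.60 and 6.41. Gm16250 and Gm7211 were high at 24 and 96 h alike, the first with 5.59, 7.46, 5.23 and 7.39 and the second with 10.27, 12.12, 9.74 and 12.05. Beside Cebpb, which encodes a transcription factor of macrophages, A530013C23Rik, at chr2:167690759-167697413 on the plus strand and 0.3 kb from the gene, had 3.96, 8.41, 4.52 and 3.59 and was well above background at 24 h alone, at least 3.60 log2 units over 0 h. Gm14321, in the same stretch of the chromosome, had 6.29, 8.17, 7.36 and 5.98 and was also highest at 24 h.

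The widest swing came from a single spot. Gm12665, an lncRNA gene at chr11:24903983-24926050 on the minus strand, had 2.62, 17.46, 2.67 and 2.66, so its 24 h level was at least 12.66 log2 units above that of 0 h. The processed signal, the intensity after background subtraction, was 185747 at 24 h and 5.16, 5.15 and 7.40 at 0, 72 and 96 h. The spot was neither saturated nor marked as an outlier at any time. With 1 spot on 1 array this value has no check.

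At 72 h, A130023I24Rik, 2.4 kb from Adam12 at chr7:134227474-134230705 on the minus strand, had the largest measured rise. Its levels were 5.69, 5.42, 8.85 and 5.53, which is 3.16 log2 units or 8.94-fold higher at 72 h than at 0 h. Gm13230 on chromosome 4 had 8.22, 8.44, 11.03 and 8.10, and the pseudogenes Gm9252 and Gm5385 had 11.51, 11.36, 13.90 and 11.31 and 11.84, 12.35, 14.07 and 12.13. In all 4 of these the 72 h level stood apart while the other arrays lay close together. Of members detected at 72 h but not at 0 h, Gm15201, A330076H08Rik and Gm17159 had the largest bounds, at least 3.09, 2.85 and 2.54 log2 units. The largest measured falls after Platr3 were in Gm12201, a pseudogene, by 1.67, and in Gm2447, a lncRNA, by 1.41.

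At 96 h, the largest measured rise after Mir100hg was in Gm12860 on chromosome 4. Its levels were 5.81, 5.86, 5.99 and 8.22, so the 96 h array alone was high. 2900079G21Rik, 20.3 kb from Arpp21, had 5.77, 5.67, 5.13 and 7.99, Gm14974 had 5.48, 4.84, 5.59 and 7.62, and Gm8884 had 6.43, 6.23, 7.11 and 8.45. Gm8260, a pseudogene on chromosome X, had 3.62, 7.18, 4.43 and 8.66 and the largest bound, at least 3.86 log2 units over 0 h. The largest measured falls at 96 h were 4.20 for Gm11954, 3.89 for Gm17757 and 3.56 for Gm11270.

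**Figure D3:**
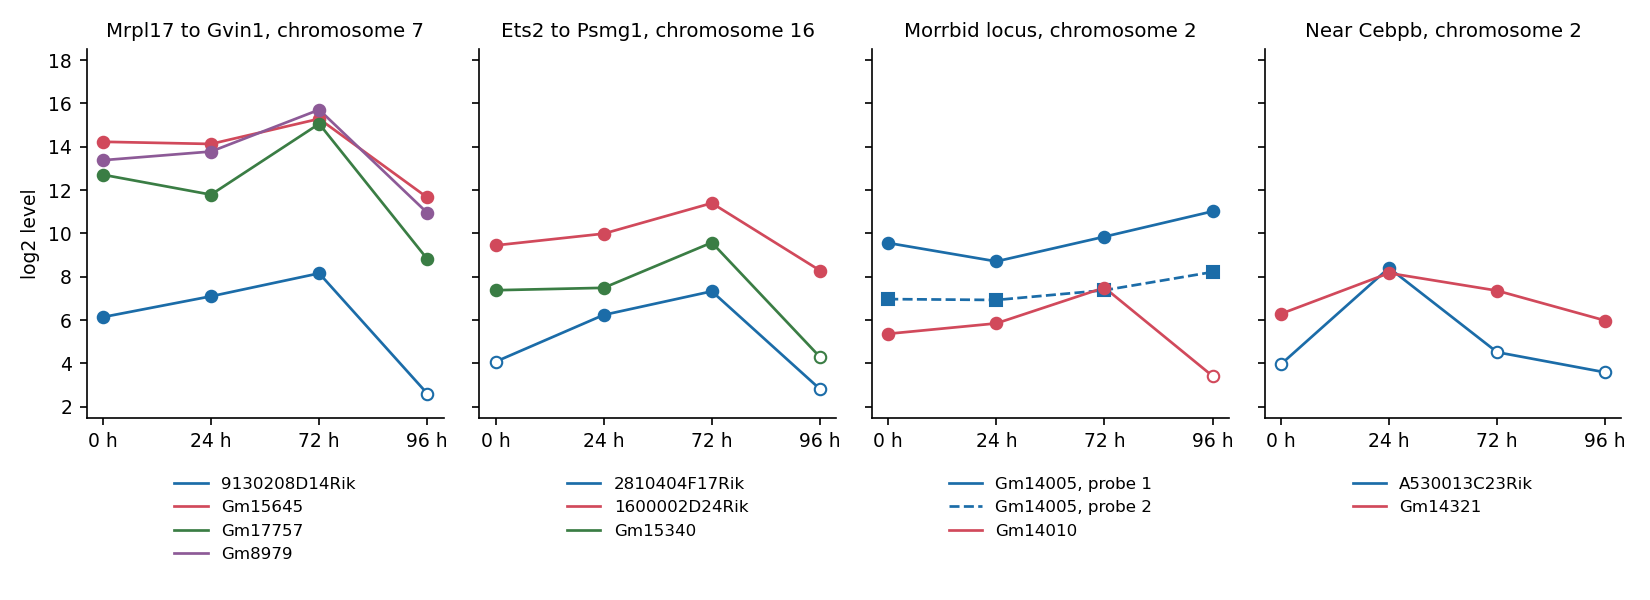
Log2 level on the 4 arrays of neighbouring members in 4 stretches of the genome, 1 line a probe and open points where the probe was not well above background. In the stretches from Mrpl17 to Gvin1 and from Ets2 to Psmg1 all lines peaked at 72 h, and all but that of 2810404F17Rik, not measured at 0 and 96 h, were lowest at 96 h, whereas both probes of Gm14005 were highest at 96 h and Gm14010 in the same interval was lowest there.

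Some neighbouring members were highest on the same array. Within 100 kb of each other lay 84 genes in 40 stretches, 37 of 2 genes and 3 of more. The stretches and the examples here were picked after their values were seen. On chromosome 7 between Mrpl17 and Gvin1, a gene of a very large interferon-inducible GTPase, 9130208D14Rik had 6.14, 7.10, 8.16 and 2.61, Gm15645 had 14.23, 14.13, 15.29 and 11.66, and Gm17757, a transcribed pseudogene, had 12.71, 11.79, 15.06 and 8.82. Gm17757 lies at 0 kb from the coding gene Gm4070, and Gm15645 lies 31.8 kb from that gene. Gm8979, another transcribed pseudogene 77.4 kb from Gvin1 but further from these members, had 13.38, 13.78, 15.71 and 10.95. All 4 were highest at 72 h and lowest at 96 h, and Gm17757 and Gm8979 fell by 6.24 and 4.75 log2 units from 72 to 96 h, which is 75.5-fold and 27.0-fold. The lists mark the probes of both as cross-hybridising, so their part in each other's signal, or that of other copies, was not tested.

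On chromosome 16, 3 members between Ets2, a transcription factor gene, and Psmg1 were highest on the same array. 2810404F17Rik had 4.08, 6.24, 7.33 and 2.82, 1600002D24Rik had 9.45, 9.99, 11.40 and 8.29, and Gm15340 had 7.38, 7.49, 9.58 and 4.30. Each was highest at 72 h. The lowest level of 1600002D24Rik and Gm15340 was that of 96 h, where Gm15340 was not well above background, and 2810404F17Rik had no measured level at 0 and 96 h. Gm14010, on the other strand within the Morrbid interval at chr2:128423654-128424565, had 5.37, 5.85, 7.50 and 3.42. It fell by at least 3.08 log2 units from 72 to 96 h, while the Morrbid probes were 1.16 and 0.84 higher at 96 h.

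Most pairs of probes of 1 gene could not be compared in full. Of 564 genes, 21 had more than 1 member probe, giving 25 pairs, none of them on the same transcript. Only 3 pairs, those of 4930417H01Rik, Gm14005 and Gm16026, were well above background on all 4 arrays with both probes, and their largest differences in change against 0 h were 2.05, 0.82 and 0.61 log2 units. With bounds for the levels not measured, a criterion chosen after seeing the data, the change differed by over 2-fold at some time in 4 of 25 pairs, and no difference could be shown in 14. The 4 were A330076H08Rik with at least 3.94 log2 units, 4930417H01Rik with 2.05, 5530601H04Rik with at least 1.29 and Gm12940 with at least 1.02. Values taken without a floor differed by over 2-fold in 21 of 25 pairs, but most of these hold levels that were not above background. A call at 2-fold was shared by 3 pairs, those of A330076H08Rik, Gm14005 and Gm16026, and 1 pair had opposite calls.

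A330076H08Rik, which spans Mir344-2, was the pair with opposite calls. Its first probe had 6.34, 7.59, 5.25 and 6.69 and its second 2.65, 7.20, 7.65 and 6.80. At 24 h both were higher than at 0 h, but at 72 h the first was over 2-fold lower and the second at least 2.85 higher. The probes of 4930417H01Rik, each well above background on every array, had 10.96, 9.76, 10.57 and 9.71 and 5.19, 5.91, 6.53 and 5.99, the first lower at 24 and 96 h and the second higher at 72 h. Gm16026, on unlocalised contigs of chromosome 1, had 7.94, 8.68, 9.23 and 7.21 on one probe and 6.47, 6.59, 8.15 and 5.78 on the other. Both of these were highest at 72 h and lowest at 96 h, and the second shares 36 bases with a listed probe of Sp110, an interferon-inducible nuclear protein gene.

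**Figure D4:**
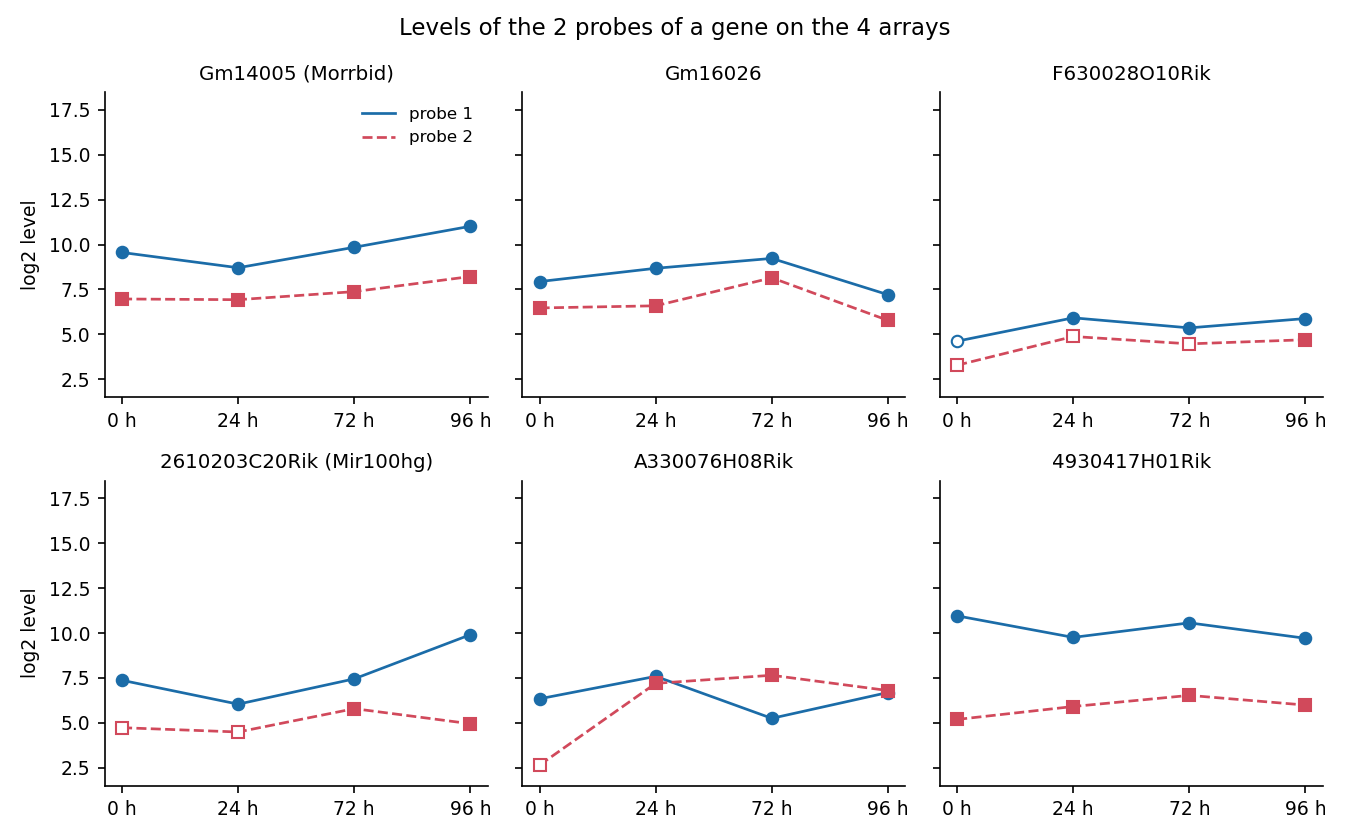
Log2 level on the 4 arrays of both probes of 6 genes, open points where the probe was not well above background. The lines run in parallel for Gm14005 and Gm16026 and cross for A330076H08Rik, whose probes differ by at least 3.94 log2 units in their change from 0 to 72 h.

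Whether shared sequence went with a shared pattern could be read only where levels were measured. Runs of 16 or more bases were shared by 25 pairs of listed probes, 13 of them between members. Gm15092 and Gm15100, with the 47 shared bases printed above, had 4.69, 5.16, 5.84 and 4.46 and 3.26, 4.25, 5.24 and 3.07, both detected at 72 h alone. Gm15110 and Gm15112, also with 47, had 5.22, 5.19, 6.82 and 4.86 and 4.43, 3.34, 3.90 and 4.91. The first was highest at 72 h. The second was detected only at 96 h, below the 72 h floor of 5.15, so its highest array is not known. Gm12427 lies 3.6 kb from Hsd3b6 and Gm12431 at 0 kb from Hsd3b1, steroid dehydrogenase genes of chromosome 3. Their probes share 32 bases, and were detected at 24 and 96 h for the first and at 96 h for the second. Most of these levels lie near the floor, where values that are not well above background have no order.

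Promoter sequences were found for 225 members, 237 promoters in all, and were searched on both strands for letters that transcription factors of the myeloid line are known to bind. The AP-1 letters TGANTCA were in 10.5% of the members' promoters and in 7.81% of all 32851 promoters of the same length. The PU.1 core GAGGAAG was in 20.3% against 13.6%, the GAAA pair of interferon response elements, with any 2 bases between, in 5.91% against 3.44%, TGGAAA of NFAT sites in 26.2% against 21.4%, and TTGNNNAA of C/EBP sites in 35% against 36.7%. The promoter of F630028O10Rik printed above holds the C/EBP letters from 145, the PU.1 core from 82 and the interferon letters from 74 bases before the start. That of Morrbid holds the PU.1 core from 17 bases before the start and the AP-1 letters from 1 base before it. These are matches of letters and no binding was measured.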

How the data were processed

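Each of the 4 times had 1 one-colour Agilent array of 60930 probes, so the number of arrays limits the precision. The deposited intensity values of the spots are the processed signal, background subtracted and detrended within the array by Agilent Feature Extraction (11.0.1.1 in the file headers), and the median signal and local background, not normalized. The deposited table of log2 values was quantile normalized over the arrays by the authors in GeneSpring, which filter was applied is not given in the sources used here, and a quantile normalization of the processed signals came within 0.34 of it for each probe. The flags of each spot (well above background, positive and significant, outlier, saturated) were used as deposited.

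Members were read from the study's lists of lncRNA probes, of which only probe, gene, transcript, place and sequence were used and not the fold columns. The members and lists were chosen with earlier results of these data known. A change is the difference of 2 log2 values, taken against the lowest value of probes well above background where a side was not, and called at 2-fold. With 1 array for each time no test was made. Groups were taken from the sample titles, slides from the file headers. Named members were the 6 largest rises, 3 largest falls and 3 largest bounds at each time, genes with several probes, members with a current symbol, those with a small RNA in their interval, the 4 largest differences either way from 72 to 96 h and the 8 highest mean signals. Others are said to be chosen after their values were seen. List coordinates, which count from 0, were moved by 1 and match GRCm38, and RefSeq's tables of that build gave biotypes, neighbours, microRNAs and promoters.

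Alternatives were quantile, 75th percentile, median and cyclic loess scaling of the processed signals, normexp background correction, other filters, floors and fold limits, 1 probe a gene, and leaving out cross-hybridising probes. The call step was tested on simulated data. Python 3.11.15 with pandas 2.3.3 and numpy 2.4.6, matplotlib 3.10.9, R 4.3.3 and limma 3.58.1 were used.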

Additional observations from a re-analysis of the deposited data

Results flagged for a closer look

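In 16 members the 72 h level was at least 2-fold higher and the 96 h level at least 2-fold lower than that of 0 h. The differences from the 0 h array at these times thus had opposite signs. These are 5.23% of the 306 members that could be compared at both times, beside 174 (0.448%) of all 38823 such probes. The members include a list of probes higher at 72 h and no list of probes lower at 96 h, so the count depends on how they were chosen. They were looked at again for this reason, and with 1 array for each time the difference was not tested. E230001N04Rik, whose probe is marked as cross-hybridising, had 6.46, 7.08, 8.62 and 4.27 at 0, 24, 72 and 96 h. It was not well above background at 96 h, so its fall from 0 h was at least 2.04 log2 units. Gm14928 had 11.59, 10.41, 12.70 and 9.01. Gm15340 and 1600002D24Rik between Ets2 and Psmg1, and 9130208D14Rik, Gm15645, Gm17757 and Gm8979 between Mrpl17 and Gvin1, belong here too. The others are Gm9089, 4933404O12Rik, Gm5401, Gm15326, Gm17203, Gm19705, 4930539M17Rik and 6030440G07Rik. Gm15340, 9130208D14Rik, Gm19705 and 6030440G07Rik were also not well above background at 96 h, so their falls are bounds. The 72 and 96 h arrays lay on different slides, and the part of the slide was not tested.

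The reverse, at least 2-fold lower at 72 h and higher at 96 h, was seen in 3 members (0.98%) and 240 of all probes (0.618%), and this difference was not tested either. They were Gm14074 (Platr3), C730036E19Rik with 6.25, 5.34, 2.67 and 7.59, whose fall at 72 h was at least 1.09 as it was not well above background there, and Gm5532 with 7.95, 5.16, 2.67 and 9.52. The last was also lower at 24 h and was not well above background at 24 and 72 h.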

How the results depend on the processing

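The counts of members past 2-fold follow here for higher and lower in turn at 24, 72 and 96 h against 0 h, then 72 h against 24 h, 96 h against 72 h and 96 h against 24 h. As reported they were 116 and 61, 129 and 9, 133 and 70, 120 and 81, 91 and 171, 52 and 81. All 12 stayed within 1.5 times of these with quantile normalized scanner signals, median scaling, cyclic loess, a floor at the 5th percentile, 1 probe a gene, and without cross-hybridising probes. With 75th percentile scaling only 96 h against 72 h moved, to 138 higher. With normexp 10 moved, to 35 higher at 24 h, 51 and 5 at 72 h, 41 higher at 96 h, 73 and 37, 42 and 91, and 30 and 43 in the later contrasts, and the cause was not tested. Counting only members detected on both arrays gave 57 higher at 24 h, 79 higher at 96 h, 39 lower from 24 to 72 h, 49 higher from 72 to 96 h, and 31 and 33 from 24 to 96 h, as fewer members were compared. With no filter and no floor there were 212 higher at 24 h, 226 and 32 at 72 h, 272 higher at 96 h, 198 and 177, 208 higher, and 138 higher in the later contrasts, and with the less strict flag 212, 226 and 26, 272, 198 and 171, 206, and 138. A limit of 1.5-fold gave 180 higher at 24 h, 24 lower at 72 h, 202 higher at 96 h, 126 lower, 140 higher and 94 higher in the later contrasts. A limit of 4-fold gave 14 and 20, 21 and 2, 12 and 30, 29 and 14, 15 and 59, and 12 and 33. Of 25 probe pairs, 21 differed by over 2-fold without a floor and 20 with 75th percentile scaling. Of the 3 pairs detected on all arrays 1 did, and 4 of 25 did by the least difference that bounds allow, a setting chosen after seeing the data, as unmeasured levels then count only as bounds.

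Of 44 changes of named members, 26 moved by over 1.5 times with normexp, none reversed, and none moved with quantile, 75th percentile or cyclic loess scaling or the other floor. The median change of all probes at 24 h was 0.12 log2 units in the authors' table and 0.06 with cyclic loess. No paired analysis was possible because each time has 1 array. Weak signals limit the changes, as 226 members were detected on a single array, where a change is only a bound. Each time is 1 culture of 1 cell line. The lists of lower probes and of probes higher at 96 h were held in part. Time and slide cannot be told apart for 24 and 96 h against 0 h.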

Other observations

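Members of different lists also lay side by side. On chromosome 13, between Exoc2 and Foxq1, 4 members lay within a stretch whose neighbours are at most 100 kb apart. 4930401O12Rik, marked as cross-hybridising, had 12.42, 11.05, 12.14 and 11.15 at 0, 24, 72 and 96 h, and Gm11376 had 6.39, 7.71, 6.54 and 6.75. The first was lowest and the second highest at 24 h. Gm11372 was detected only at 0 h, at 5.13, and G630018N14Rik only at 72 h, at 5.38. On chromosome 2, Gm13658 and 9430019J16Rik share the interval chr2:75436057-75444179 on opposite strands. Gm13658 was detected at 24 and 96 h with 5.79 and 5.20, and 9430019J16Rik only at 72 h with 5.19, values near the floor of each array. These places were picked after their values were seen.

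No member lay within 20 kb of any of 22 osteoclast and 10 macrophage genes that were looked up. The nearest was 4930558C23Rik, 96 kb from Ctsk, the gene of the main bone-degrading protease of osteoclasts, with levels of 5.38 at 72 h and 4.80 at 96 h and none measured earlier. Gm26878, 124 kb from Irf8, was detected at 72 and 96 h with 5.24 and 5.01. Gm13905, 171 kb from Traf6, an adaptor of RANKL signalling, was detected only at 24 h, at 6.56, which is at least 1.75 log2 units above 0 h. 9330175E14Rik, picked after its values were seen, lies 0.1 kb from Nlrc5, a regulator of class I antigen presentation genes. It had 8.89, 9.27, 10.16 and 8.61, and was 1.27 log2 units higher at 72 h than at 0 h.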
